A study of Mus musculus with 4 samples.

Results

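The cells described here are the macrophages of the embryonic mouse cortex, a class that holds microglia and the macrophages of its borders. They were selected on measured UMIs, tagged transcript molecules: cell barcodes with at least 500 genes and at least 1 UMI in 3 or more of C1qa, C1qb, C1qc, Csf1r, Cx3cr1, P2ry12, Aif1 and Mrc1. Of 19015 barcodes with at least 500 genes, 84 met the rule, which is 0.442%. The cortex of 4 C57BL/6 mice at E16.5, late in gestation, was dissociated with papain and profiled by droplet sequencing of transcript 3′ ends, 1 library per mouse. In 2 mice the genotype is HET, a label that is not defined further, and in the other 2 it is COP1 KO, with titles that read CKO. No Cre driver, allele, litter or batch is given, so it is not stated which cells lost COP1. Genotype p-values rest on these 4 libraries alone. Where groups of cells were compared within libraries, p-values rest on how those differences varied over the libraries used. The tests of single genes share information on spread over all genes tested. Their p-values therefore do not measure the spread of that gene's own libraries alone. The HET libraries held 16 of the cells each, and the COP1 KO libraries held 28 and 24.

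Microglia and border macrophages descend largely from yolk sac precursors and depend on the receptor CSF1R. Microglia live inside the brain tissue, where they prune synapses and clear dying cells. Border macrophages sit in the meninges, around vessels and at the choroid plexus, and carry scavenger receptors such as MRC1 (CD206) and LYVE1. COP1 is a ubiquitin ligase whose known substrates include the transcription factors C/EBPα, C/EBPβ, c-Jun and members of the ETS family.

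The promoters of 3 genes that separate the cell classes below are shown because transcripts of these genes carry the division between microglia and macrophages. P2ry12 encodes a purine receptor of microglia, Mrc1 the mannose receptor and Pf4 a platelet-type chemokine. The sequences are RefSeq windows of GRCm38.p6, from 250 bases before to 50 bases after the start, printed along the gene's strand. They lie at chr3:59262936-59263235 on the minus strand for P2ry12, chr2:14229164-14229463 on the plus strand for Mrc1 and chr5:90772185-90772484 on the plus strand for Pf4. Capitals mark GGAAGT or, on the other strand, ACTTCC, the core bound by ETS factors, a family that includes the macrophage factor PU.1.
P2ry12: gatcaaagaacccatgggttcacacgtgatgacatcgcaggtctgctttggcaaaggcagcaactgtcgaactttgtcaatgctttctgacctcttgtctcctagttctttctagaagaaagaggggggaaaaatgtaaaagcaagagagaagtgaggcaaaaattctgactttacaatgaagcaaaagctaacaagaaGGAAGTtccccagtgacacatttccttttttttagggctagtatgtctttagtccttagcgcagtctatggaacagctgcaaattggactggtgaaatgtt
Mrc1: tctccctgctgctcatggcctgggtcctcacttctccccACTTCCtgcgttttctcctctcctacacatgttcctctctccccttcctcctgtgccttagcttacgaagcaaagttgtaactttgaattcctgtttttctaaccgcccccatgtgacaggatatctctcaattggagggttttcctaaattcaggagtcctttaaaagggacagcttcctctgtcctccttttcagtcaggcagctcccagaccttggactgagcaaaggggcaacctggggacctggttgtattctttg
Pf4: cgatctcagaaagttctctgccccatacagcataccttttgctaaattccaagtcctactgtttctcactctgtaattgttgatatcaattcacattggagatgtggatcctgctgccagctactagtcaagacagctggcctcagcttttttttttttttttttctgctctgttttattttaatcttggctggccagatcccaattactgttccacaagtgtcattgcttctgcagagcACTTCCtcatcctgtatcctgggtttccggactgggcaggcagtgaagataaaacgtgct
Each window held this core 1 time. It was present in 4 of the 6 rule genes that matched the table, 6 of 11 microglia genes and 6 of 12 border macrophage genes. Among all 27025 genes with a window, 26.5% held it. These matches describe letters and do not show a binding site.

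The library totals ran from 28049007 to 28988265 counts, and the 84 cells held 126041, 130140, 178781 and 164600 counts in HET replicates 1 and 2 and COP1 KO replicates 1 and 2. Values below are given in this order of libraries. The median cell had 7316, 6771.5, 6016 and 6234.5 UMIs, against 5213 to 5545 in the HET and 4574.5 to 5196 in the COP1 KO barcodes at large. A barcode sequence can recur between libraries: 181 did so, and 3 of the 84 cells carried such a sequence. The doublet caller Scrublet marked 233 barcodes and none of the 84 cells.

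The rule cut a clear gap. No barcode had 3 or 4 of its 8 genes, and the cells had 5 (3 cells), 6 (5 cells), 7 (46 cells) or 8 (30 cells). Just outside it, 4, 1, 1 and 3 barcodes had 2 of the genes. C1qa, C1qb and C1qc, which encode the chains of complement component C1q and lie side by side on chromosome 4 (C1qb 136880126-136886200, C1qc 136889801-136892936, C1qa 136895916-136898844), were detected in all 84 cells. Csf1r was detected in 83 cells, Aif1, the actin-binding protein IBA1, in 81, and the fractalkine receptor gene Cx3cr1 in 76. Mrc1 was detected in 67 cells and P2ry12 in 48. These genes chose the cells, so their detection is a description. In barcodes with Neurod6, a gene of excitatory neurons, P2ry12 had a UMI in 2 of 12116 barcodes and Mrc1 in 34, with median depths of 5138.5 to 6257 UMIs.

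Marker lists were read as a check of the name. Every one of 20 pan-macrophage genes, a list that shares Csf1r with the rule, had counts in the cells, with a summed level of 15003, 18243, 16472 and 18955 CPM, which are counts scaled to a common total per library. Monocyte genes summed to between 5.64 and 12.2 CPM, and Ly6c2, Ccr2, Plac8 and Chil3 were at 0. All 8 mast cell and lymphocyte genes were at 0, as were S100a8, S100a9, Camp, Ngp and Ltf of neutrophils. Col1a1, Col3a1 and Dcn of fibroblasts and Kdr and Flt1 of endothelium had no count either. The full lists of these classes were not empty. Endothelium genes summed to 24.03, 15.5, 11.3 and 0 CPM. Fibroblast genes summed to 7.75 CPM in HET replicate 2 and had no count elsewhere. The neutrophil list had counts in HET replicate 1 alone. Erythroid genes summed to between 116 and 254 CPM and radial glia genes to between 67.3 and 101 CPM. A count of 0 over the cells allows a level of up to 5.05 CPM. Of antigen presentation genes, the class II genes H2-Aa and H2-Eb1 and their activator Ciita were at 0. An excitatory neuron list summed to 1218, 542, 1332 and 814 CPM, against 9618 to 10004 CPM in the other barcodes.

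Detection of P2ry12 and Mrc1 alone left the split between microglia and macrophages unresolved in 33 cells, which had UMIs of both. P2ry12 without Mrc1 was seen in 15 cells, Mrc1 without P2ry12 in 34 and neither in 2, both in COP1 KO replicate 2. By library, the P2ry12-only cells numbered 0, 5, 7 and 3, the Mrc1-only cells 7, 4, 14 and 9, and the cells with both 9, 7, 7 and 10. The absence of P2ry12-only cells in HET replicate 1, 0 of 16, allows a share of up to 18.8%.

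Pf4, a gene outside the rule (chromosome 5, 90772435-90773383), gave a sharper division. In 61 cells Pf4 ran from 11 to 219 UMIs, with a median of 101, and in the other 23 cells it was at 0, with no cell between. These groups, chosen after the values were seen and called here the Pf4 class and the Pf4-negative class, are given as a description. All 15 P2ry12-only cells and both cells with neither gene were of the Pf4-negative class, and all 34 Mrc1-only cells were of the Pf4 class. The 33 cells with both divided into 27 of the Pf4 class and 6 of the Pf4-negative class.

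**Figure D1:**
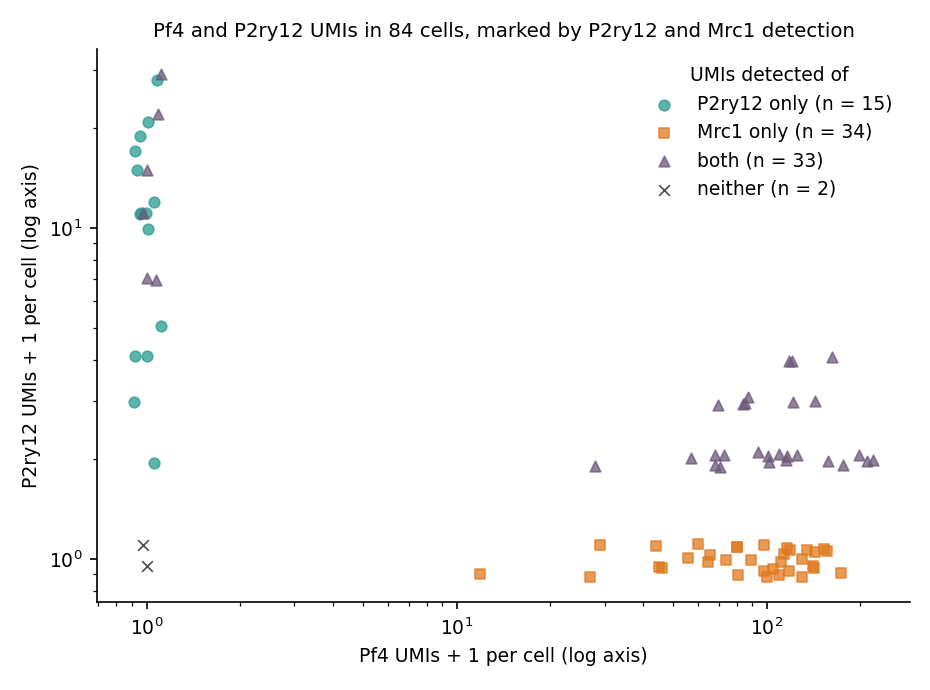
UMIs of Pf4 (x axis) and P2ry12 (y axis) plus 1 in each of the 84 cells on log axes, with a small random offset, marked by which of P2ry12 and Mrc1 had UMIs. The 23 cells at the left have no Pf4 and 0 to 28 P2ry12 UMIs, and the 61 cells at the right have 11 to 219 Pf4 UMIs and at most 3 P2ry12 UMIs.

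Other markers followed the same division. Lyve1, the hyaluronan receptor of border macrophages, had UMIs in 58 of 61 Pf4 class cells and in 0 of 23 Pf4-negative class cells. F13a1, the clotting factor XIII subunit of tissue macrophages, was seen in 61 of 61 and 1 of 23. Sall1, a transcription factor of microglia, was seen in 0 of 61 and 9 of 23, Siglech in 7 of 61 and 21 of 23, and the matrix protein gene Sparc in 2 of 61 and 22 of 23. P2ry12 itself was present at low level in the Pf4 class, with 0 to 3 UMIs and 27 of 61 cells above 0, against a median of 10 and a highest value of 28 in the Pf4-negative class. Mrc1 had 1 to 44 UMIs in the Pf4 class, and 6 of 23 Pf4-negative class cells had up to 5. Median depth was alike, at 6458 and 6470 UMIs. The C1q genes were shared: C1qa had a median of 29 UMIs in the Pf4 class and 40 in the Pf4-negative class, and Csf1r 8 and 14.

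The transcriptomes of the 2 ends of the split were compared over libraries with edgeR's quasi-likelihood test, Mrc1-only against P2ry12-only cells, with the library as a block and Benjamini-Hochberg adjustment. HET replicate 1 had no P2ry12-only cell, so the fit rests on the other 3 libraries. Mrc1-only cells carried border macrophage genes and chemokine genes such as Ccl7, and P2ry12-only cells carried microglial and lysosomal genes. At an adjusted p under 0.05, 163 of 693 genes tested (23.5%) differed, 98 (14.1%) higher and 65 (9.38%) lower in Mrc1-only cells. Without COP1 KO replicate 2 the fit called 19 genes, and without COP1 KO replicate 1 it called 81. Without COP1 KO replicate 2, 32 of 45 genes examined singly lost their call and none changed sign.

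Of 16 border macrophage genes 10 were tested, and 8 were higher and none lower. The median log2 difference of the list was 4.63, against 0.02 over all genes tested. The rule gene Mrc1 was not tested. Pf4 was at 0 in the P2ry12-only cells of the 3 libraries and at 13935, 15321, 13733 and 15380 CPM in the Mrc1-only cells of the 4 libraries (adjusted p = 3.4e-06). Over all cells, Pf4 was at least 827-fold higher in the Pf4 class, set against a floor of 3 counts over the Pf4-negative class. Pf4 itself defines these classes, so that fold is a description and no support for the split. Lyve1 was at 0 in P2ry12-only cells and at 2103, 2697, 2391 and 1255 CPM in Mrc1-only cells (adjusted p = 2.6e-05). F13a1 had 1 UMI in the P2ry12-only cells, in HET replicate 2, and lay at 2515, 3443, 2278 and 2510 CPM in Mrc1-only cells (adjusted p = 4.0e-06). The groups did not overlap for any of these genes.

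Dab2, an endocytic adaptor, lay at 3690, 3844, 2729 and 3256 CPM in Mrc1-only cells and at 388, 241 and 38.3 CPM in P2ry12-only cells, a log2 difference of 3.88 ± 0.40 (SE; adjusted p = 7.3e-05). Ms4a7, a membrane protein gene used to mark border macrophages, was also higher (adjusted p = 0.00016), as were Ccl24 (3.2e-05), the transcription factor gene Maf (0.012) and the scavenger receptor gene Stab1 (0.033). Apoe and Ms4a6c did not pass. Apoe lay at 15110, 12079, 12731 and 14939 CPM in Mrc1-only cells and at 21368, 12732 and 14890 CPM in P2ry12-only cells, so the groups overlapped.

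Of 17 cytokine and chemokine genes 8 were tested, and 4 were higher in Mrc1-only cells, with none lower. These were Ccl2, Ccl7 and Ccl12, which encode attractants of monocytes, and Cxcl2. Ccl7 lay at 5937, 5222, 7574 and 7071 CPM in Mrc1-only cells and at 77.5, 285 and 153 CPM in P2ry12-only cells (log2 difference 5.32 ± 0.33, adjusted p = 3.7e-06). Ccl12 (log2 difference 3.37 ± 0.33, adjusted p = 5.4e-05) and Ccl2 (4.42 ± 0.90, adjusted p = 0.005) pointed the same way. Ccl2 varied between libraries in P2ry12-only cells, at 129, 3418 and 76.6 CPM. Cxcl2, a neutrophil attractant, had 1 UMI in P2ry12-only cells and lay at 2886, 5566, 4219 and 1153 CPM in Mrc1-only cells (adjusted p = 3.4e-06). Ccl3 and Ccl4 were abundant in both: Ccl3 at 3875, 5882, 3718 and 2357 CPM in Mrc1-only and at 3695, 8459 and 7158 CPM in P2ry12-only cells (adjusted p = 0.27).

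Further genes with large differences were Bmp2, the endothelin receptor gene Ednrb, the complement regulator properdin (Cfp), Pxdc1 and Clec4a2. All 5 were at 0 in P2ry12-only cells, with adjusted p between 0.0004 and 0.003. Over the classes, Bmp2 was at least 25-fold, Ednrb at least 19.4-fold and Pxdc1 at least 18.1-fold higher in the Pf4 class. Clec4a2 also had counts in the Pf4-negative class, and its pooled level was 9.29-fold higher in the Pf4 class. Genes of iron and heme handling were among the calls: the iron exporter ferroportin (Slc40a1, log2 difference 3.24 ± 0.43, adjusted p = 0.0004) and biliverdin reductase B (Blvrb, 3.17 ± 0.38, adjusted p = 0.00021). The complement C5a receptor gene C5ar1 was higher by 2.49 ± 0.32 (adjusted p = 0.00034) and Gas6, a bridging ligand for dying cells, by 1.57 ± 0.33 (adjusted p = 0.0054). Lgals1, galectin 1, was higher by 2.05 ± 0.31 (adjusted p = 0.00094). Interferon-induced Ifitm2 and Bst2, the only 2 of 13 interferon genes tested, were both higher (adjusted p = 0.0019 and 0.003).

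Neuronal RNA moved with this split. The excitatory neuron list summed to 1377, 653, 1863 and 1071 CPM in the Pf4 class and to 126, 284, 179 and 345 CPM in the Pf4-negative class. All 12 cells with 10 or more UMIs of the list were of the Pf4 class, 3 in each library, and Scrublet marked none of them. Stmn2 and Tubb3, neuronal genes, were called higher in Mrc1-only cells (adjusted p = 0.005 and 0.011). Leaving such cells out left 7, 3, 12 and 6 Mrc1-only cells in the libraries and every P2ry12-only cell. The fit then called 117 of 533 genes, 72 higher and 45 lower. The part of neuronal RNA in other calls was not tested.

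Of 15 microglia genes 7 were tested, and 6 were lower in Mrc1-only cells. The list's median log2 difference was -3.43. Sparc was at 0 in Mrc1-only cells of all 4 libraries and at 1628, 1600 and 2679 CPM in P2ry12-only cells (adjusted p = 1.9e-05). Olfml3, a secreted olfactomedin, was at 0 in all 61 Pf4 class cells and at least 78.4-fold higher in the Pf4-negative class (adjusted p = 0.00017 between P2ry12-only and Mrc1-only cells). The orphan receptor gene Gpr34 (log2 difference -3.43 ± 0.36, adjusted p = 8.0e-05), the lectin gene Siglech (-3.56 ± 0.61, adjusted p = 0.0019) and the crystallin gene Crybb1 (-2.88 ± 0.39, adjusted p = 0.00046) also passed. Fcrls, a receptor-like gene listed as microglial, did not: it lay at 1031, 1062, 1026 and 1492 CPM in Mrc1-only cells and at 879, 767 and 1378 CPM in P2ry12-only cells.

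Of 17 lysosomal genes 16 were tested, and 10 were lower in Mrc1-only cells with none higher. The list's median was -1.17. Its summed level was 40866 to 57101 CPM in the Pf4-negative class and 14288 to 16459 CPM in the Pf4 class over libraries. The protease gene Ctsd lay at 1402, 1090, 1001 and 1000 CPM in Mrc1-only cells and at 15529, 9138 and 15464 CPM in P2ry12-only cells (log2 difference -3.59 ± 0.25, adjusted p = 6.7e-06). Ctss was lower by 2.41 ± 0.25 (adjusted p = 8.0e-05). The protease inhibitor gene Cst3, named after its values were seen, was lower too, at 2515, 2295, 2679 and 2713 against 8992, 8546 and 10105 CPM (-1.79 ± 0.22, adjusted p = 0.00021). Neither gene's groups overlapped.

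Trem2, the lipid-sensing receptor of microglia, lay at 61.8, 201, 163 and 84.8 CPM in Mrc1-only cells and at 1576, 1337 and 2335 CPM in P2ry12-only cells (log2 difference -3.46 ± 0.37, adjusted p = 9.0e-05). The tetraspanin gene Cd9 was at 41.2, 0, 37.6 and 33.9 against 1473, 1819 and 2488 CPM (-5.95 ± 0.42, adjusted p = 6.8e-06). Serpine2 had 1 UMI in Mrc1-only cells and lay at 1240, 657 and 1761 CPM in P2ry12-only cells. Syngr1, Arsb, Apbb1ip, Lpcat2 and Mpeg1 followed, with log2 differences between -4.71 and -4.07. Of 22 immediate early and dissociation genes, 18 were tested, 4 were lower in Mrc1-only cells, among them Fos (-1.90 ± 0.34, adjusted p = 0.0025), Egr1 (-1.58 ± 0.29, adjusted p = 0.0029) and Junb (-1.58 ± 0.30, adjusted p = 0.0032), and 1 was higher. That list summed to 15573, 20438, 18940 and 16645 CPM in the Pf4-negative class and 14580, 8823, 14123 and 14458 CPM in the Pf4 class.

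**Figure D2:**
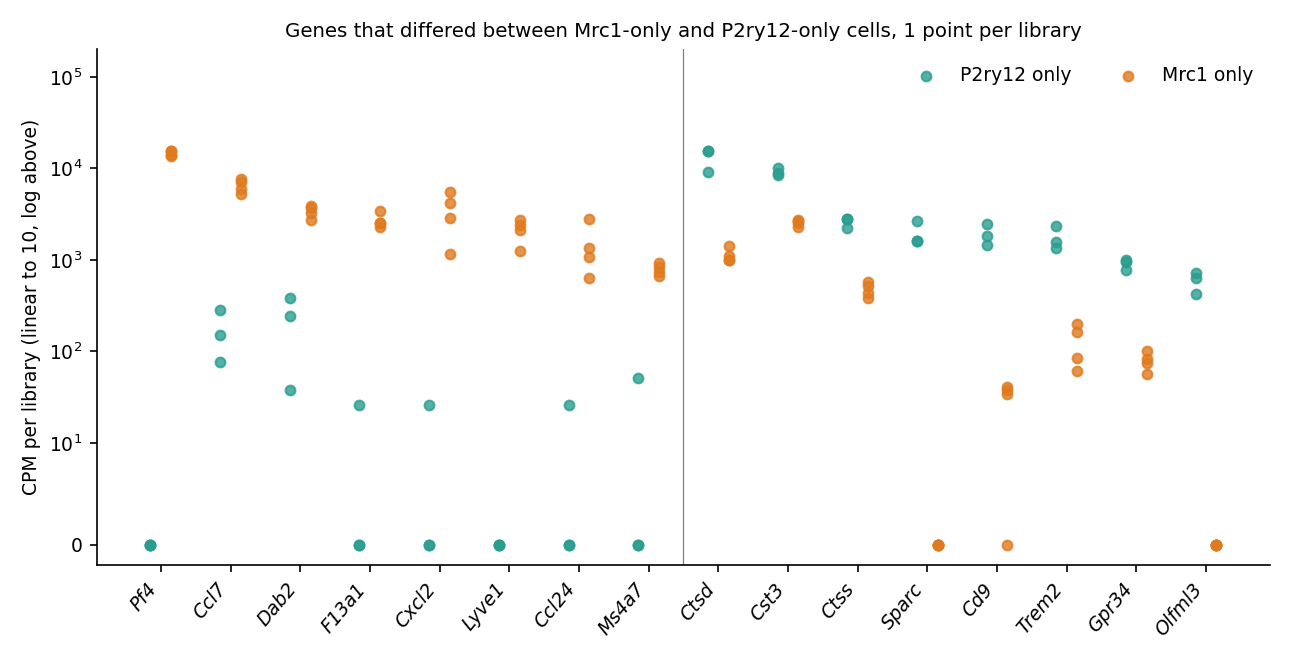
CPM of 16 genes that differed, on an axis that is linear to 10 and logarithmic above, with 1 point per library for P2ry12-only cells (3 libraries) and Mrc1-only cells (4 libraries). Pf4 lies at 0 in P2ry12-only cells and at 13733 CPM or more in Mrc1-only cells, and Ctsd lies at 9138 CPM or more in P2ry12-only cells and at or below 1402 CPM in Mrc1-only cells.

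The Pf4 class was also compared with the Pf4-negative class, over all 84 cells and all 4 libraries, as a description. All 15 P2ry12-only and all 34 Mrc1-only cells are part of it, on the same sides. Agreement with the split calls was therefore largely built in. Of the 163 genes above, 151 (92.6%) were past the threshold there with the same sign, and they were 49.3% of the 306 genes past it between the classes.

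Against the other cells, the 84 cells formed a larger share of the COP1 KO libraries. The share was 0.349%, 0.366%, 0.531% and 0.502% of barcodes, with exact 95% intervals of 0.200 to 0.566%, 0.209 to 0.593%, 0.353 to 0.766% and 0.322 to 0.746%. The intervals, which cover counting error only, overlapped, while the libraries of the genotypes did not. The mean was 0.357% ± 0.012 (SD, n = 2) in HET and 0.517% ± 0.0203 in COP1 KO, a ratio of 1.45. An exact two-sided permutation test gave p = 0.333, the smallest value that 2 against 2 libraries allow. Fibroblast barcodes, a meningeal class, moved with it at 0.501%, 0.411%, 0.531% and 0.628%. Their part in the difference was not tested. Endothelial barcodes, at 0.262%, 0.389%, 0.493% and 0.188%, overlapped between the genotypes.

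Both classes were in the same order. Pf4 class cells numbered 14, 11, 20 and 16, with a mean share of 0.278% ± 0.038 in HET and 0.357% ± 0.0314 in COP1 KO (exact permutation p = 0.333). Pf4-negative class cells numbered 2, 5, 8 and 8, with 0.0789% ± 0.05 and 0.160% ± 0.0111 (exact permutation p = 0.333). The Pf4-negative class thus made up 12.8% of the cells' counts in HET replicate 1 and 30.0%, 31.6% and 35.4% in the other libraries. Any genotype value for all 84 cells carries this difference in class mix.

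**Figure D3:**
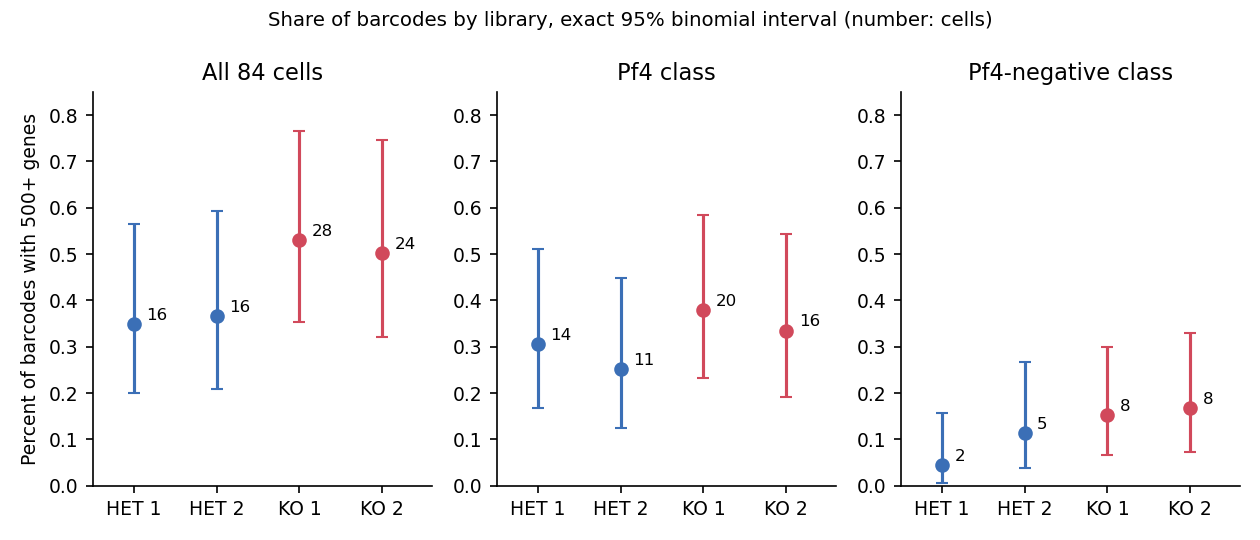
Share of barcodes with at least 500 genes (y axis, percent) that were among the 84 cells, of the Pf4 class or of the Pf4-negative class in each library, with exact 95% binomial intervals and cell numbers. The 2 COP1 KO libraries lie above the 2 HET libraries in each panel, with intervals that overlap.

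The share of Mrc1-only cells did not separate the genotypes. It was 43.8%, 25%, 50% and 37.5%, a mean of 34.4% ± 13.3 in HET and 43.8% ± 8.84 in COP1 KO (exact permutation p = 0.667). The sign turned with the way of splitting. After thinning each cell to 1500 UMIs the share was 65.6% in HET and 52.4% in COP1 KO, and the Pf4 class was 78.1% of the HET and 69.0% of the COP1 KO cells. Cells with more UMIs of the border macrophage list than of the microglia list were 87.5% and 90.8%. They numbered 15, 13, 24 and 23, more than the Pf4 class cells of each library (14, 11, 20 and 16). The border list holds Apoe, whose levels overlapped between Mrc1-only and P2ry12-only cells. This measure thus does not follow the Pf4 division.

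Dividing cells were recognised by 20 genes of mitosis and chromosome segregation, with cells thinned to 1500 UMIs and called dividing at 3 or more genes. They numbered 12 of 84: 4 of 16, 3 of 16, 3 of 28 and 2 of 24 by library. Before thinning these 12 cells had 9 to 20 of the genes, with a median of 15.5, and the other 72 had 0 to 8, with a median of 1. After thinning 55 cells had none, 3 cells had 2 and 1 cell had 3. Division occurred in both classes, in 9 of 61 Pf4 class cells (14.8%) and 3 of 23 Pf4-negative class cells (13%). In Neurod6 barcodes, which hold postmitotic neurons, the same call was met by 4.54%, 4.53%, 5.07% and 4.25%.

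Dividing cells were a larger share in the HET libraries, at 25% and 18.8%, than in the COP1 KO libraries, at 10.7% and 8.33%. The exact intervals were wide, 7.27 to 52.4% in HET replicate 1 and 2.27 to 28.2% in COP1 KO replicate 1, and overlapped. The means were 21.9% ± 4.42 and 9.52% ± 1.68 (n = 2 each, exact permutation p = 0.333). With no thinning the means were 28.1% and 23.5%, and the libraries overlapped. The libraries also overlapped when 2 or more of the 20 genes sufficed, at 21.9% and 15.8%, and with 3 or more genes of a longer G2 and M phase list, at 25% and 23.5%. With S phase genes the order turned, 25% in HET and 34.8% in COP1 KO. By class, the means were 23.4% and 8.12% in the Pf4 class, and 10% and 12.5% in the Pf4-negative class, where the libraries overlapped.

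**Figure D4:**
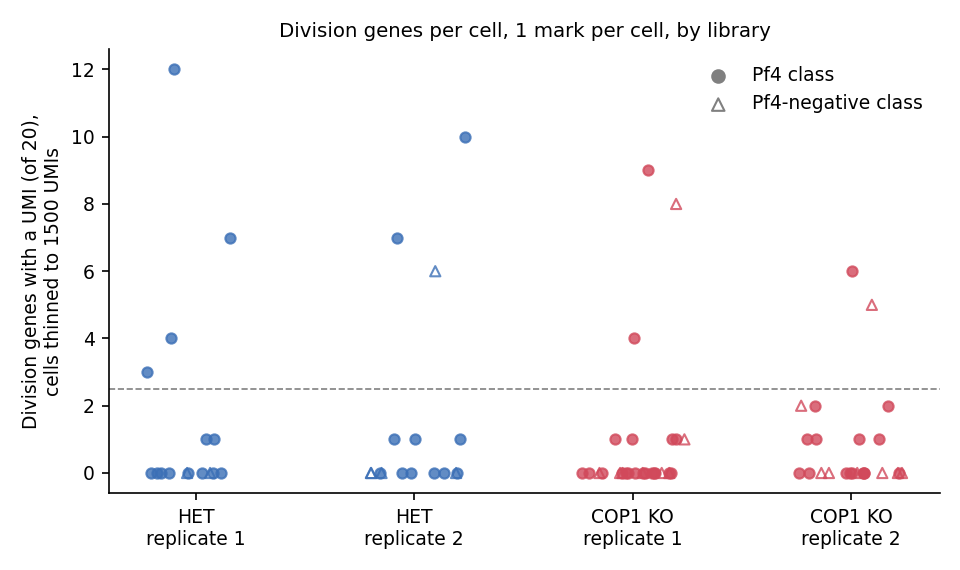
Number of 20 division genes with a UMI (y axis) in each cell after thinning to 1500 UMIs, by library, with filled circles for the Pf4 class and open triangles for the Pf4-negative class. Above the dashed line, which marks 3 or more genes, lie 4 and 3 cells in the HET and 3 and 2 cells in the COP1 KO libraries.

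COP1 itself, listed as Rfwd2 (chromosome 1, 159232156-159354872), was too sparse in these cells to check the genotype, with 1, 0, 2 and 5 UMIs. In all other barcodes it lay at 32.2, 39.6, 30.8 and 29.5 CPM. Reads from transcript 3′ ends show a deletion directly only if it removes that end, and the labels do not say which part was deleted.

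No gene passed the genotype test in the 84 cells. edgeR's quasi-likelihood test on counts summed per library called 0 of 2820 genes (0.0%) at an adjusted p under 0.05, and DESeq2 also called 0. At an unadjusted p under 0.05 edgeR had 168 genes (5.96%) and DESeq2 39. Simulated data of the same size had a fixed dispersion, and their changed genes had a mean of 200 CPM or more. In them the test found 0% of 200 genes changed 2-fold, 77.5% of those changed 4-fold and 98% of those changed 8-fold. Recovery of genes below that level was not simulated. Leaving out HET replicate 1 gave 27 calls and leaving out HET replicate 2 gave 17, while leaving out either COP1 KO library gave 0. Values of single genes follow as descriptions. Among all genes tested, the COP1 KO libraries were both above the HET libraries for 16.3% and both below for 19.5%.

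Mitotic genes were lower in both COP1 KO libraries without passing the test. The 20 division genes summed to 2411 and 2991 CPM in HET and to 1027 and 508 CPM in COP1 KO. For 19 of the 20, with no filter on level, both COP1 KO libraries lay below both HET libraries. Among the 12 division genes that passed the filter and were tested, all 12 did so, against 19.5% of all genes tested. Ube2c, which loads ubiquitin for the anaphase-promoting complex, was at 264 and 418 CPM in HET and at 102 and 18.4 CPM in COP1 KO (log2 difference -2.43 ± 0.48, adjusted p = 0.18). Birc5, survivin, was at 376 and 256 against 113 and 73.4 CPM (-1.71 ± 0.32, adjusted p = 0.18). Cenpa, the centromeric histone variant, was at 184 and 263 against 67.7 and 30.6 CPM (-2.12 ± 0.42, adjusted p = 0.18). These levels are not independent of the 7 HET and 5 COP1 KO dividing cells above, which the same 20 genes define. Within the Pf4 class the test called 1 of 2129 genes, Ube2c (-3.29, adjusted p = 0.013). S phase genes did not share the order, summing to 2083, 829, 1332 and 2001 CPM.

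Calr and Gm13889 were the other genes among the 5 smallest p-values. Calr, calreticulin, an endoplasmic reticulum chaperone, was at 376 and 279 CPM in HET and at 739 and 832 CPM in COP1 KO (1.30 ± 0.26, adjusted p = 0.18). It did not overlap between genotypes in the Pf4 class (358 and 310 against 651 and 702 CPM) or in the Pf4-negative class (502 and 207 against 930 and 1071 CPM). Gm13889 was at 56.1 and 15.5 against 248 and 226 CPM (2.75 ± 0.45, adjusted p = 0.18). The Pf4-negative class held 87 of its counts, at 377, 0, 787 and 639 CPM, and the Pf4 class held 3, of which 1 was in HET replicate 1 and 2 were in HET replicate 2.

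Of 11 genes for COP1 substrates, 7 were tested: 6 had a positive and 1 a negative log2 difference. Their median was 0.48 against 0.02 over all genes tested, of which 51.9% had a positive difference. None passed. Cebpb (C/EBPβ) was at 833 and 945 CPM in HET and at 1309 and 1732 CPM in COP1 KO (0.81 ± 0.23, adjusted p = 0.49). The libraries did not overlap in the Pf4 class, at 854 and 875 against 1583 and 2029 CPM, and overlapped in the Pf4-negative class, at 691 and 1111 against 715 and 1191 CPM. Cebpa was at 80.1 and 93.0 against 124 and 153 CPM (0.70 ± 0.37, adjusted p = 0.84). Junb was at 761 and 798 against 1281 and 1432 CPM (0.83 ± 0.22, adjusted p = 0.46), and Jun at 1546 and 1333 against 1185 and 1285 CPM (-0.19 ± 0.21, adjusted p = 0.93). Junb is also in the immediate early and dissociation list, where 15 of 20 genes tested had a positive difference. Cebpa and Junb were lower in the Pf4 class than in the Pf4-negative class (log2 difference -2.15 and -1.60). The part of the class mix in their values was not tested. COP1 acts on proteins, and only transcripts were measured here.

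Chemokine genes were mixed. Of 13 tested cytokine genes 7 had a positive difference (median 0.11) and none passed. Ccl3 was at 3372 and 3914 CPM in HET and at 5598 and 5784 CPM in COP1 KO (0.68 ± 0.18, adjusted p = 0.46), with the wider gap in the Pf4-negative class, 3077 and 3695 against 8424 and 7597 CPM. Ccl9 was at 208 and 170 against 389 and 698 CPM (1.55 ± 0.33, adjusted p = 0.22). Its level was lower in the Pf4 class than in the Pf4-negative class (log2 difference -2.41), and the part of the class mix was not tested. Cxcl1 is in no list and was named after its values were seen. It had no count in the Pf4-negative class and was at 304 and 93.0 against 688 and 545 CPM (1.67 ± 0.39, adjusted p = 0.33). Ccl4 was at 3468, 7331, 8482 and 8550 CPM, where HET replicate 1 alone was low (0.68 ± 0.28, adjusted p = 0.72). The immediate early and dissociation list summed to 14706, 12307, 15643 and 15234 CPM, and its part in the chemokine values was not tested.

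The identity lists were read beside the class mix. Microglia genes had a positive difference in 8 of 11 tested (median 0.23) and border macrophage genes a negative one in 10 of 14 (median -0.24), with no gene past the threshold in either. Lysosomal genes had a positive difference in 16 of 17 tested (median 0.25), and pan-macrophage genes in 16 of 19 (median 0.12). The share of counts from the Pf4-negative class, given above, moved with these lists. Within the Pf4 class no gene of these lists passed. Positive and negative differences there numbered 2 and 2 for microglia genes, 7 and 7 for border macrophage genes, 8 and 8 for lysosomal genes and 10 and 8 for pan-macrophage genes. The 4 medians lay between -0.15 and 0.022.

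The last comparison asked whether genotype differences in these cells differed from those in the other barcodes of the same libraries. In edgeR's quasi-likelihood test of the interaction, with the library as a block, 19 of 15939 genes (0.119%) passed, 8 (0.0502%) with a more positive and 11 (0.069%) with a more negative difference in the 84 cells. DESeq2 called 1 of them, Lgals1. In data simulated in the same way, the interaction test found 0% of 200 genes changed 2-fold. It found 14% of those changed 4-fold and 69.5% of those changed 8-fold. Leaving out HET replicate 1 or 2 gave 5 and 3 calls, and leaving out either COP1 KO library gave 0.

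Lgals1 levels had opposite genotype orders in the 84 cells and in the other barcodes. The difference within the 84 cells did not pass the genotype test. In the 84 cells Lgals1 was at 2002 and 1713 CPM in HET and at 1394 and 1120 CPM in COP1 KO. In all other barcodes it was at 47.3 and 51.4 CPM in HET and at 177 and 174 CPM in COP1 KO. The libraries of the genotypes overlapped in neither. The difference of log2 changes was -2.36 ± 0.26 (adjusted p = 7.3e-11), and in the 84 cells alone the log2 difference was -0.53 ± 0.21 (adjusted p = 0.72). In the Pf4 class, where most of the transcript lay, the levels were 2286, 2137, 1781 and 1517 CPM. Tagln2, transgelin 2, had a like pattern in the other barcodes, at 24.9, 39.0, 86.4 and 85.2 CPM, and 168, 85.2, 62.1 and 110 CPM in the 84 cells.

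Cebpb also passed this test (0.97 ± 0.19, adjusted p = 0.0023). It was at 18.5, 17.9, 17.1 and 15.4 CPM in the other barcodes, where it is sparse. Calr lay at 302, 322, 313 and 322 CPM in them (1.27 ± 0.21, adjusted p = 0.00017), and Junb at 146, 148, 142 and 144 CPM (0.87 ± 0.18, adjusted p = 0.004). For the 20 division genes the interaction was negative in 20 of 20, and 5 passed. Ube2c was at 131, 148, 153 and 162 CPM in the other barcodes (-2.61 ± 0.36, adjusted p = 3.5e-07). The calls of Cebpb, Junb and Calr were lost when any 1 library was left out and under DESeq2, and that of Lgals1 when either COP1 KO library was left out (adjusted p = 1).

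**Figure D5:**
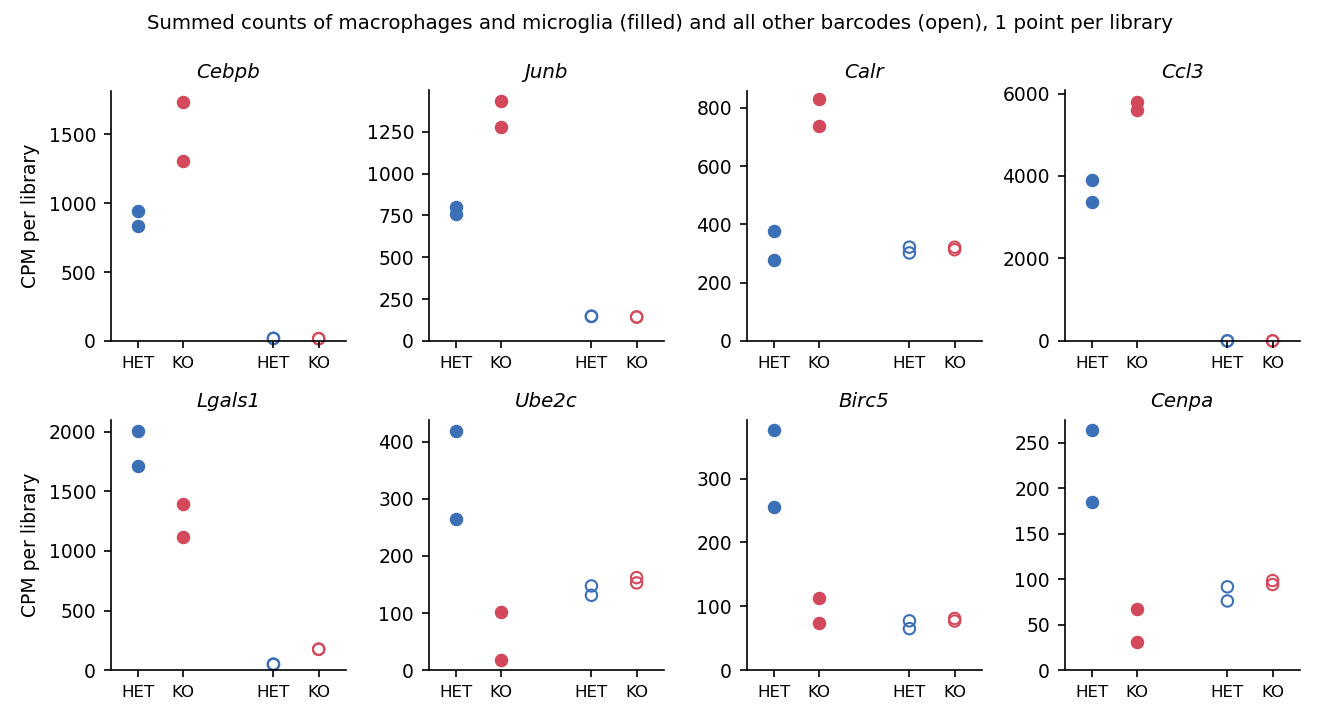
CPM of 8 genes (y axis, linear) by genotype in the summed counts of the 84 cells (filled) and of all other barcodes (open), with 1 point per library. Cebpb, Junb, Calr and Ccl3 lie higher and Lgals1, Ube2c, Birc5 and Cenpa lower in both COP1 KO libraries of the 84 cells, with no adjusted p under 0.05 in those cells.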

How the data were processed

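Cortical cells of 4 mice were profiled, 1 library each. Per the labels' protocols, the 10x Chromium 3′ v2 kit was used. The authors deposited whole-number counts per gene and barcode, not normalized. Per the submitters' processing notes, reads were aligned with GSNAP to GRCm38 (mm10). How reads were counted, which annotation was used, and how UMIs were collapsed and cells called was not given in the sources used here. Of 36528 gene rows, 3065 carried a number as name (1.69% of counts) and stayed in totals, unnamed. A further 367 identical copies (1.34%) were removed.

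The cells and gene lists were chosen with earlier results of these data known. Counts were summed per library and tested with edgeR 4.0.16 (TMM, filterByExpr, quasi-likelihood, Benjamini-Hochberg), with DESeq2 1.42.0 as an alternative, in R 4.3.3. The SE of an edgeR log2 difference is its size divided by the square root of the F of its quasi-likelihood test, an approximation. Shares were compared with exact permutation tests, and intervals are Clopper-Pearson at 95%. Doublets were scored with Scrublet in scanpy 1.11.5 (score above 0.25). The scripts were tested on simulated data. Named genes were, per comparison, the 10 with the largest log2 change in each direction among those past the threshold with 100 CPM or more in the higher group, the 5 smallest p-values where fewer than 5 passed, the rule genes, Rfwd2 and the listed genes. A single gene of the microglia and lysosome lists is not reported here and was left out of these lists.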

Additional observations from a re-analysis of the deposited data

Results flagged for a closer look

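For 17 named genes the genotype difference in the 84 cells differed from that in the other barcodes by the interaction test (edgeR, adjusted p under 0.05). Values are the log2 change from HET to COP1 KO in the 84 cells minus that in the other barcodes. The more positive ones were Lyz2 (3.83), Gm13889 (2.17), Phlda1 (1.70), Calr (1.27), Cd9 (1.05), Cebpb (0.97) and Junb (0.87). The more negative ones were Cenpf (-2.69), Ube2c (-2.61), Cdca8 (-2.54), Cdkn2c (-2.48), Lgals1 (-2.36), Cenpa (-2.33), Tagln2 (-1.98), Spp1 (-1.97), Birc5 (-1.87) and H2afx (-1.55).

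The Lyz2 value came from the other barcodes of HET replicate 1, at 4.2 CPM against 0.0365, 0.222 and 0.0707 CPM in the remaining libraries, while the 84 cells held 144, 356, 491 and 190 CPM. Spp1, osteopontin, was set by HET replicate 2, with 1720 CPM in the 84 cells against 208, 288 and 906 CPM in the other libraries. Cd9 moved with the class mix: it was at 2323, 1473, 2021 and 2780 CPM in the Pf4-negative class and at or below 37.9 CPM in the Pf4 class. Phlda1 was at 64.1 and 116 CPM in the HET and 440 and 184 CPM in the COP1 KO sums of the 84 cells.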

How the results depend on the processing

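The share of the 84 cells was higher in COP1 KO under every alternative tried, but most alternatives kept the same cells. A rule of 4 or more genes, thinning to 1500 UMIs and removal of doublets each counted 16, 16, 28 and 24 cells. Leaving out 1 library reused the same shares. With 2 or more rule genes the means were 0.412% in HET and 0.557% in COP1 KO. The Mrc1-only difference, 9.38 percentage points, turned to -13.2 after thinning and to -9.08 by more Mrc1 than P2ry12 UMIs or by any Pf4 UMI. The sign was kept by list sums (3.27), a measure that does not follow the Pf4 division. The dividing share difference turned to 9.82 with S phase genes and 2.5 in the Pf4-negative class, and was -1.49 with G2 and M phase genes. Genotype calls numbered 0, and 7 in P2ry12-only cells (HET replicate 2 alone, with 5 cells, against 2 COP1 KO libraries), 1 in the Pf4 class (chosen after seeing the data), and 0 to 27 leaving out 1 library (27 without HET replicate 1, 17 without HET replicate 2). Split calls, 163, became 277 with no filter on low counts, 103 with DESeq2, 306 between the classes and 19 to 212 leaving out 1 library. Interaction calls, 19, became 1 with DESeq2 and 0 to 5 leaving out 1 library. The cause of these changes was not tested. Signs turned for Cebpb in P2ry12-only cells (-0.46), Jun in the Pf4 class (0.010), Spp1 without HET replicate 2 (1.55, against -1.73 without COP1 KO replicate 2) and in the Pf4 class (1.32, and 0.063 for the interaction), the Lyz2 interaction without HET replicate 1 (-1.86, against 6.05 without HET replicate 2) and the Gm13889 interaction in the Pf4 class (-11.4), where it had nearly no counts. Over the named genes, 434 of the split values kept sign and call and 42 lost the call. Of the 434, 45 came from leaving out HET replicate 1 and 45 from removing doublets. Both of these settings repeat the main split fit and could not change it. No paired analysis was possible because the labels give no replicate numbers: those used here follow accession order and only name libraries. A library left alone in its genotype was assumed to vary like the other genotype's. The library was a block in the split fit, which called 168 genes with no replicate block. With 16 to 28 cells a library, shares have wide intervals, and 2-fold changes were not recovered in simulated genotype data.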
